A study of Mus musculus with 24 samples.

Results

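Interferon-stimulated genes were examined as a set of 37 listed genes in RNA from bone marrow stromal cultures of wild type mice and of mice homozygous for an Sh3bp2 knock-in allele (genotype Sh3bp2KI/KI in the labels). The genes were taken from a list of symbols, drawn up with earlier results of these data known, and all 37 were found among the 54232 gene identifiers of the count tables. Sh3bp2 encodes an adaptor protein of immune receptor signalling, and mutations of the human gene cause cherubism, an inflammatory disease of the jaw with many osteoclast-like cells. The mice were female, of strain C57BL/6 and 6 to 8 weeks old, and the cells were kept for 7 days in MEM-alpha with serum and antibiotics. After sorting, cells with both CD45 and Sca1 on their surface were called hematopoietic, and cells with Sca1 but without CD45 were called mesenchymal. The 4 groups were wild type hematopoietic, knock-in hematopoietic, wild type mesenchymal and knock-in mesenchymal, with 6 libraries each. The labels do not name the amino acid change of the knock-in, which every cell of those mice carries, nor whether the libraries of a group come from separate mice or cultures, so p-values measure the spread between these libraries, which may be technical.

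Interferons bind receptors that signal through JAK kinases to transcription factors of the STAT family. With IRF9, STAT2 takes part in a complex called ISGF3 that binds a DNA element named the interferon-stimulated response element (ISRE) and switches on a large group of genes, while interferon gamma acts through another element, the gamma-activated site (GAS). The products sense foreign nucleic acid, block viral translation and replication, tag proteins with ISG15 and feed back on the pathway. Low interferon signalling is present in unstimulated macrophages and marrow cells, and interferons restrain the formation of osteoclasts from macrophage precursors.

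Promoter sequences were read from RefSeq windows of build GRCm38.p6, from 250 bases before to 50 bases after each gene's start, for the 28 genes of the set that had one. The ISRE core searched was GAAA, any 2 bases and GAAA again, or TTTC, any 2 bases and TTTC on the other strand, counting overlapping matches. It was present in 19 of these 28 genes (67.9%), against 1079 of all 27025 genes with a window (3.99%) and 3.44% of all 32851 windows. The GAS core TTCNNNGAA, which reads the same on both strands, was present in 7 of 28 genes (25%), against 9.55% of all genes. A match is a description of the letters and not a measured binding site. The stretches below are shown because they carry the core in genes whose levels are described later, and Ifit3 and Ifit3b are shown together because their stretches have the same letters. Each is written on the strand of its gene, with the letters of the core matches in capitals. Ifit1 (chr19:34640761-34640837, plus strand), Ifit3 (chr19:34583349-34583440, plus strand) and Ifit3b (chr19:34607745-34607836, plus strand) each hold 2 matches. Isg15 (chr4:156200851-156200920, minus strand) holds 3 overlapping matches, and Oas1a (chr5:120907526-120907569, minus strand) and Bst2 (chr8:71537563-71537626, minus strand) hold 2 overlapping matches each. Stat2 (chr10:128270252-128270309, plus strand) and Trim30a (chr7:104465196-104465253, minus strand) hold 1 match each.
Ifit1: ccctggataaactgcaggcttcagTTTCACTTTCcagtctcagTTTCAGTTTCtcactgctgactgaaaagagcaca
Ifit3: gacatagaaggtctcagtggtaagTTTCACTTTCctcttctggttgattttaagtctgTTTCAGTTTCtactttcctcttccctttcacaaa
Ifit3b: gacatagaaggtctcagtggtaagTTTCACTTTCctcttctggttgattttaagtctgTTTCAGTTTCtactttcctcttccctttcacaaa
Isg15: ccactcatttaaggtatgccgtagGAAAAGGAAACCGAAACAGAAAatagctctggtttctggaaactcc
Oas1a: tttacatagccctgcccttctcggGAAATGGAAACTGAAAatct
Bst2: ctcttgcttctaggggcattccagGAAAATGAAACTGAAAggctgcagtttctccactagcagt
Stat2: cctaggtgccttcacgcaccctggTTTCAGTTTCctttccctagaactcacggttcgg
Trim30a: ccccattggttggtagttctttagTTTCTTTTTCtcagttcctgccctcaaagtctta

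Total counts ranged from 9875390 to 15826711 per library, and levels are given as CPM, the count per 1000000 counts of a library, after TMM scaling over all 24 libraries. The Sh3bp2 transcript was at 163 to 234 CPM in wild type and 185 to 286 CPM in knock-in hematopoietic libraries, and at 6.25 to 8.89 CPM in all mesenchymal libraries; this level does not read the knock-in sequence and so does not check the genotype labels. Ptprc, which encodes CD45, was at 672 to 873 CPM in hematopoietic and 0.791 to 5.93 CPM in mesenchymal libraries, so the sort was visible in every library. Ly6a, which encodes Sca1 and marked both sorted populations, did not pass a test between them in wild type (log2 fold change -0.22, mesenchymal over hematopoietic, adjusted p = 0.644). The file names carry a prefix that divides every group into 2 sets of 3 libraries, replicates 1 to 3 and 4 to 6; the labels do not say what the sets are, and the set was a term in every fit. Some genes that leukocytes or most cells use, among them Irf8, Myd88 and Itgam, are listed at 0 in all 24 libraries, so a listed 0 is not read here as absence. Igtp, an immunity-related GTPase of the set, had 1 count in all 24 libraries and shares 162 exonic bases with its neighbour Irgm2, and it was not tested.

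The summed level of the 37 genes was highest in wild type hematopoietic libraries. It was 1760 ± 449 CPM (SD, n = 6; lowest 1255, median 1763, highest 2430) there and 1253 ± 370 CPM (lowest 953.9, median 1170, highest 1958) in knock-in hematopoietic libraries. In mesenchymal libraries it was 579.8 ± 248 CPM in wild type (lowest 347, median 538.9, highest 1046) and 431 ± 82.4 CPM in the knock-in (lowest 325, median 433, highest 524). The genotypes overlapped in both populations, and the lowest hematopoietic library was below the highest mesenchymal one.

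**Figure D1:**
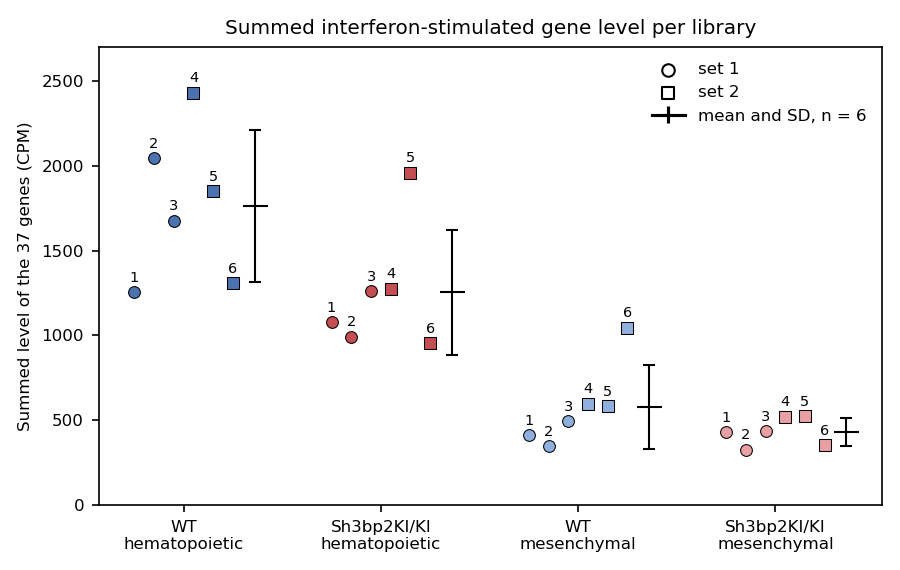
Summed level of the 37 interferon-stimulated genes in CPM (vertical axis, linear from 0) in each library by group, with replicate numbers above the points; circles are set 1, squares are set 2, and the bar to the right of each group is the mean with its SD over 6 libraries. Knock-in hematopoietic replicate 5 (1958 CPM) and wild type mesenchymal replicate 6 (1046 CPM) lie above the other libraries of their groups.

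The genes of the set moved together from library to library within a group. Among genes with enough counts to rank, knock-in hematopoietic replicate 5 was the highest library of its group for 34 of 36, wild type hematopoietic replicate 4 for 30 of 36 and wild type mesenchymal replicate 6 for 31 of 33. Wild type hematopoietic replicates 1 and 6 were the lowest of their group for 18 and 14 of 36 genes, and knock-in hematopoietic replicates 6 and 2 for 20 and 12. Knock-in mesenchymal replicate 2 was lowest for 18 of 28, while the highest values of that group were split, with 11 in replicate 4, 11 in replicate 5 and 4 in replicate 1. The share of all genes that ranked the libraries in these ways was not computed. In wild type mesenchymal replicate 6 the median gene was 1.14 on the log2 scale above its group's median, and in knock-in hematopoietic replicate 5 it was 0.87 above. Because of this shared spread the genes are not independent measurements of a genotype difference. Ifi44, an interferon-induced protein that restrains several viruses, did not follow this order: it ranged from 3.06 to 110.9 CPM in wild type hematopoietic libraries, was highest in replicate 3, and was lowest of its group in knock-in replicate 5, at 11.1 CPM.

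**Figure D2:**
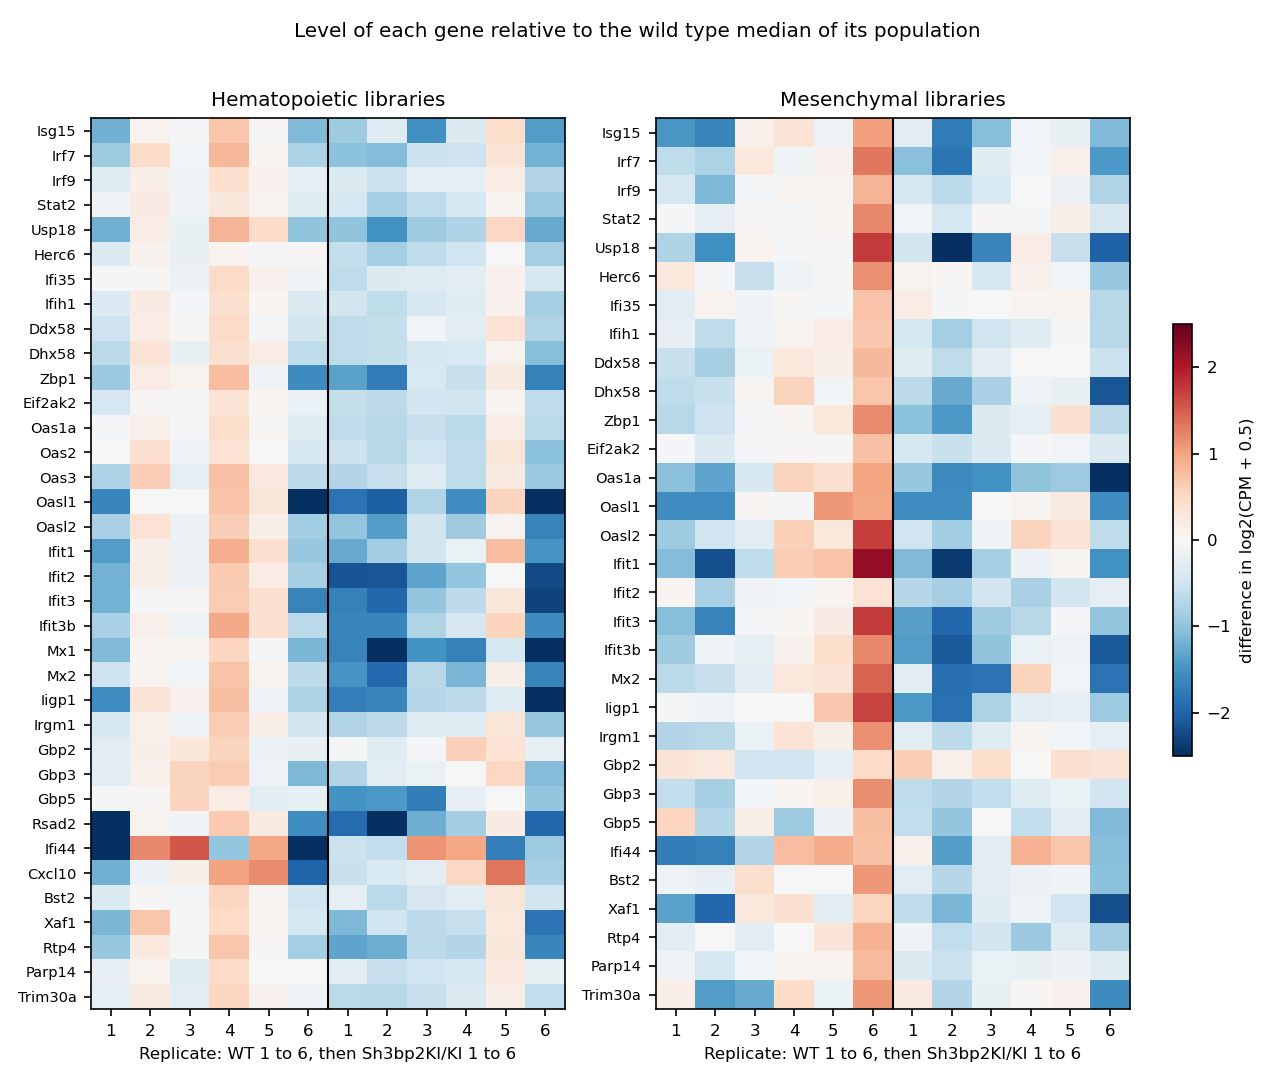
Level of each gene (rows) in each library (columns, wild type replicates 1 to 6 left of the line and Sh3bp2KI/KI replicates 1 to 6 right of it), as the difference in log2(CPM + 0.5) from the wild type median of the same population, with colours stopped at 2.5 in either direction; genes that were not tested in a population are left out. Wild type mesenchymal replicate 6 is red for nearly every gene, and knock-in hematopoietic replicate 5 is redder than the other knock-in hematopoietic libraries.

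In hematopoietic cells 7 of 36 tested genes of the set fell in the knock-in and 0 rose, by edgeR's quasi-likelihood test (p-values adjusted by Benjamini-Hochberg over all 14030 tested genes, threshold 0.05). Over all tested genes, 6.89% fell and 9.01% rose, 15.9% in all. DESeq2 called 10 lower and 0 higher. The genes that fell were Herc6, Mx1, Trim30a, Eif2ak2, Gbp5, Stat2 and Oas1a. Another 8 had an unadjusted p under 0.05, all of them lower in the knock-in. The median log2 fold change of the 36 genes, knock-in over wild type, was -0.52, against -0.005 for all tested genes, and 35 of 36 fitted values were below 0, against 50.7% of all. For 0 of the 36 did the 6 knock-in libraries lie wholly below the 6 wild type libraries, against 3.19% of all genes, or wholly above them, against 4.61%. In 6 of the 7 genes that fell, knock-in replicate 5 lay within the wild type range and the other 5 knock-in libraries lay below every wild type library. These genes were picked by the test on the same libraries, so this pattern is a description and not further support, here and for single genes below. The share of all genes with this pattern was not computed. In bulk RNA such as this, fewer cells of one type and less RNA per cell cannot be told apart.

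Among the transcription factors, the ISG15 system and the feedback genes, 2 of 7 fell. Stat2, the STAT partner of IRF9 in ISGF3 (chr10:128270559-128292849, plus strand), was at 58.5, 72.4 and 87.8 CPM (lowest, median and highest) in wild type and at 37.6, 49.8 and 75.5 CPM in knock-in libraries. Only knock-in replicate 5 reached the wild type range, and the log2 fold change was -0.52 (SE 0.15, adjusted p = 0.0386). Herc6, the main ubiquitin ligase for ISG15 in the mouse (chr6:57581000-57664632, plus strand), was at 21.01, 26.8 and 28.95 CPM in wild type and at 14.6, 17.3 and 26.6 CPM in the knock-in, again with replicate 5 alone in the wild type range (log2 fold change -0.50, SE 0.13, adjusted p = 0.0197). Herc6 shares 11.3% of its 75-base stretches with other genes, so its counts carry that doubt. The other 5 did not pass by edgeR, of which DESeq2 called Ifi35 lower. Irf7, an inducer of interferon alpha genes, had a log2 fold change of -0.66 (adjusted p = 0.211), Irf9 one of -0.30 (adjusted p = 0.209), and the ubiquitin-like protein gene Isg15 one of -0.49 (adjusted p = 0.524). Ifi35, which binds the related protein NMI, was at -0.36 (adjusted p = 0.0580), and Usp18, which removes ISG15 from proteins and blocks the interferon receptor, ranged over 8.24 to 35.55 CPM in wild type and 6.50 to 28.2 CPM in the knock-in (adjusted p = 0.236).

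Of the 5 nucleic acid sensors 1 fell. Eif2ak2, which encodes the kinase PKR that stops translation on double-stranded RNA (chr17:78852564-78882573, minus strand), was at 113, 151 and 192 CPM in wild type and at 95.8, 104 and 157 CPM in the knock-in. Knock-in replicate 5 (156.9 CPM) lay in the wild type range, and the other 5 lay between 95.8 and 110 CPM, below all of the wild type libraries. The log2 fold change was -0.42 (SE 0.12, adjusted p = 0.0366). The RNA helicase sensors Ifih1 (MDA5), Ddx58 (RIG-I) and Dhx58 (LGP2) had log2 fold changes of -0.39, -0.26 and -0.43, with adjusted p of 0.119, 0.464 and 0.236. Zbp1, a sensor of Z-form nucleic acid that triggers cell death, was at -0.68 (adjusted p = 0.332).

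In the oligoadenylate synthetase family, whose active enzymes lead to activation of the RNA-degrading enzyme RNase L, 1 of 5 fell. Oas1a (chr5:120896256-120907521, minus strand) was at 37.5, 46.2 and 62.9 CPM in wild type and at 28.2, 29.2 and 52.9 CPM in knock-in libraries. The knock-in libraries other than replicate 5 lay close together, between 28.2 and 30.7 CPM and below all wild type libraries. The log2 fold change was -0.53 (SE 0.16, adjusted p = 0.0405), and 47.6% of the 75-base stretches of Oas1a are shared with Oas1g, so reads could have been split or dropped between them. Oas2, with the highest level of the family per kilobase of exon in wild type hematopoietic libraries, ranged over 87.8 to 156 CPM in wild type and 56.8 to 143 CPM in the knock-in (log2 fold change -0.52, adjusted p = 0.119). Oas3 was at -0.54 (adjusted p = 0.241). The related genes Oasl1 and Oasl2, of which Oasl1 restrains IRF7 translation, had log2 fold changes of -0.91 and -0.76 with adjusted p of 0.422 and 0.149.

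None of the 4 IFIT genes, whose products bind RNA ends that lack the host's cap methylation or act with those that do, passed the test by edgeR, with 2 at an unadjusted p under 0.05, and DESeq2 called 1, Ifit2. Ifit2 was at 17.2, 39.7 and 62.3 CPM in wild type and at 7.95, 12.1 and 40.0 CPM in the knock-in (log2 fold change -1.22, SE 0.39, adjusted p = 0.0550). Knock-in replicates 4 and 5 lay in the wild type range, and the other 4 lay below it. Ifit1, Ifit3 and Ifit3b were at -0.42, -0.94 and -0.97, with adjusted p of 0.558, 0.232 and 0.159. Ifit3 and Ifit3b share 687 of their 75-base stretches, which is 41.1% of Ifit3 and 35.7% of Ifit3b, so their counts cannot be read as fully separate.

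Of 7 tested GTPases of the Mx, guanylate-binding (GBP) and immunity-related (IRG) families 2 fell. Mx1 (chr16:97447035-97462907, minus strand), an antiviral GTPase whose allele in most laboratory strains makes no full protein, was at 15.8, 35.6 and 51.7 CPM in wild type and at 5.62, 10.8 and 26.5 CPM in knock-in libraries. All knock-in libraries but replicate 5 lay below the wild type range, and the log2 fold change was -1.44 (SE 0.40, adjusted p = 0.0293), the largest fall among the 7. Gbp5, a GTPase that acts at pathogen membranes and in inflammasome activation (chr3:142493978-142522344, plus strand), was at 4.77, 5.78 and 8.71 CPM in wild type and at 1.40, 2.26 and 5.78 CPM in the knock-in (log2 fold change -1.08, SE 0.32, adjusted p = 0.0378). Knock-in replicates 4 and 5, both of set 2, lay in the wild type range, while the other 4 lay below it. Mx2 was at -0.99 (adjusted p = 0.0696 by edgeR, and called lower by DESeq2), Iigp1 at -1.18 (adjusted p = 0.180), Irgm1, which guards host membranes against the other IRG proteins, at -0.42 (adjusted p = 0.223), and Gbp3 at -0.28 (adjusted p = 0.638). Gbp2 was the 1 tested gene with a fitted value above 0, at 0.004 (adjusted p = 0.992), with 7.52 to 13.8 CPM in wild type and 7.44 to 14.3 CPM in the knock-in.

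Among the other effectors 1 of 8 fell. Trim30a, a TRIM family protein that limits signalling from Toll-like receptors (chr7:104409025-104465193, minus strand), was at 148, 177 and 256.5 CPM in wild type and at 109, 117 and 198 CPM in the knock-in. Knock-in replicate 5 lay in the wild type range and the other 5 below it, and the log2 fold change was -0.49 (SE 0.14, adjusted p = 0.0316). Parp14, a mono-ADP-ribosyltransferase, was at 209 to 356 CPM in wild type and 172 to 303 CPM in the knock-in (log2 fold change -0.29, adjusted p = 0.144). Rsad2 (viperin, which makes a chain-terminating nucleotide), Rtp4 (a receptor transporter that also binds viral RNA) and Xaf1 (an apoptosis factor) were at -1.03, -0.73 and -0.65, with adjusted p of 0.235, 0.187 and 0.258. The virion tether Bst2 was at -0.26 (adjusted p = 0.390), the chemokine gene Cxcl10 at -0.05 (adjusted p = 0.964) and Ifi44 at -0.24 (adjusted p = 0.880).

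**Figure D3:**
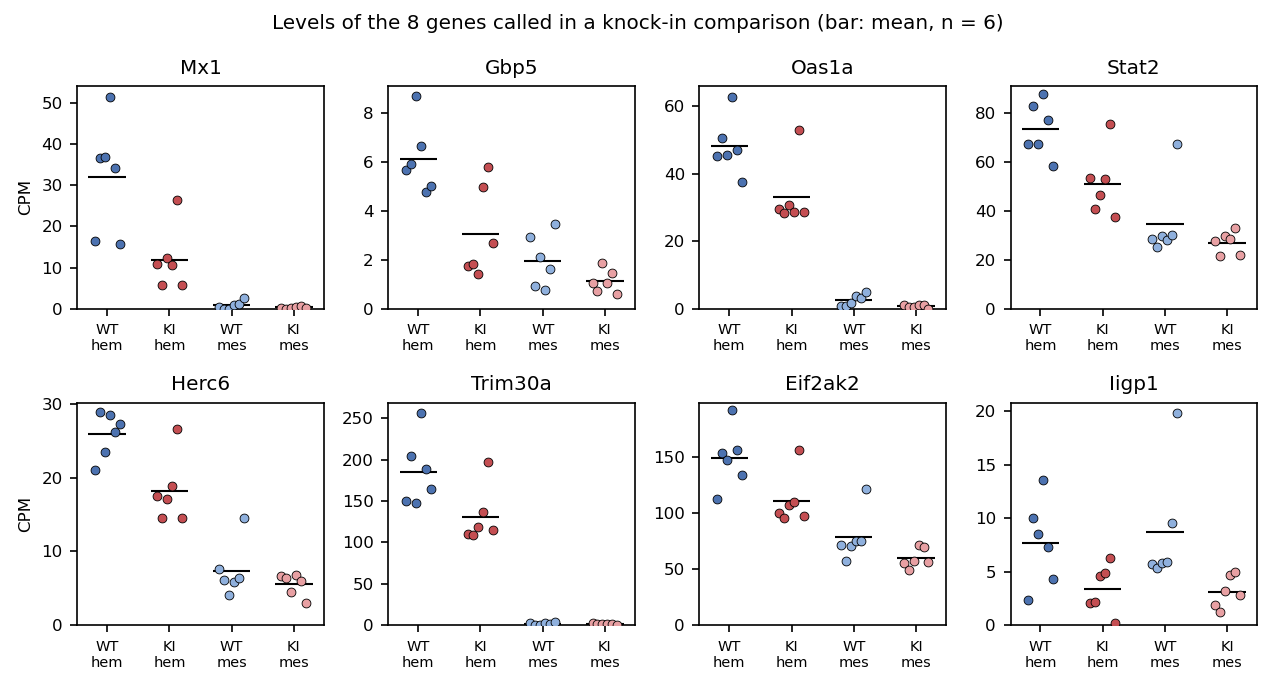
Level in CPM (vertical axes, linear from 0) of the 8 genes that passed the test in hematopoietic or mesenchymal cells, by library in the 4 groups (hem, hematopoietic; mes, mesenchymal; KI, Sh3bp2KI/KI), with the mean of 6 libraries as a bar. In hematopoietic cells knock-in replicate 5 overlaps the wild type libraries in each of the first 7 genes, and in Gbp5 knock-in replicate 4 does so too. The mesenchymal libraries of Iigp1 do not overlap between genotypes.

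The count of 7 depended on single libraries. Without knock-in replicate 5 it was 14, the median log2 fold change was -0.71, and Ifi35, Mx2, Ifih1, Oas2, Parp14, Ifit2 and Ifit3b were added to the 7. Without wild type replicate 6 it was 10, without wild type replicates 1 or 5 it was 4, without wild type replicate 3 or knock-in replicates 4 or 6 it was 2, without wild type replicate 4 or knock-in replicates 1, 2 or 3 it was 1, and without wild type replicate 2 it was 0 by edgeR (10 at an unadjusted p under 0.05), with 36 genes tested each time and the median between -0.71 and -0.41. Herc6 passed in 11 of these 12 fits, failing without wild type replicate 2 (log2 fold change -0.43, adjusted p = 0.0548). Over all tested genes these 12 fits called 681 to 889 lower, the 889 (of 14207) without knock-in replicate 5. Within set 1 alone the median was -0.62 and 4 genes fell (Gbp5, Oas1a, Stat2 and Oas2), where 255 of all 13958 tested genes fell. Within set 2 the median was -0.43 and 0 genes fell, where 58 of all 14096 tested genes fell. Calls were thus fewer in set 2 over all genes too. Of the 36 genes, 0 had an unadjusted p under 0.05 by edgeR in set 2, and the smallest adjusted p of the 7 there was 0.359. DESeq2 was not run within sets. All 7 had fitted values below 0 in both sets; Gbp5 differed most, at -1.99 in set 1 and -0.28 in set 2, and Mx1 was at -1.63 and -1.24. In 1 fit of all 24 libraries 3 fell (Mx1, Eif2ak2 and Ifit2).

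In mesenchymal cells 1 of 31 tested genes, Iigp1, fell in the knock-in and 0 rose by edgeR. Over all 13867 tested genes 3.83% fell and 3.44% rose (7.27% in all), so the edgeR count was near the share of all genes. Iigp1 encodes an IRG GTPase that attacks the vacuoles of intracellular parasites (chr18:60376027-60392634, plus strand). It was at 5.30, 5.81 and 19.8 CPM in wild type and at 1.23, 3.01 and 4.98 CPM in knock-in libraries. The highest knock-in library lay just below the lowest wild type library, so the groups did not overlap, as was so for 2.08% of all genes in this direction and 2.06% in the other. The log2 fold change was -1.45 (SE 0.29, adjusted p = 0.00937), and without wild type replicate 6, the high library, it was -1.16 (adjusted p = 0.0225). It was -1.43 within set 1 and -1.47 within set 2, where 3 libraries a group gave adjusted p of 0.0681 and 0.237, and the call was lost without the set term (adjusted p = 0.0510) and in 1 fit of all 24 libraries (adjusted p = 0.0644).

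The other mesenchymal values lay mostly below 0 without passing the test by edgeR. The median log2 fold change of the 31 genes was -0.56, against 0.001 for all genes, and 29 of 31 were below 0, against 49.7% of all genes. An unadjusted p under 0.05 by edgeR was found for 13, all of them lower in the knock-in. DESeq2 called 6 of 37 tested genes lower (Iigp1, Ifih1, Rtp4, Ifit2, Oas1a and Ifit3b) and 0 higher. Over all 28648 genes tested by DESeq2, 831 were called lower and 814 higher. Without wild type replicate 6 the median was -0.37, and it was -0.21 within set 1 and -0.88 within set 2, so its size moved by more than 1.5 times with single libraries and sets. The genes with the next smallest adjusted p by edgeR were Oas1a (log2 fold change -1.77, adjusted p = 0.0673), Ifit2 (-0.56, adjusted p = 0.0701), Ifih1 (-0.48, adjusted p = 0.0729), Rtp4 (-0.69, adjusted p = 0.0750) and Eif2ak2 (-0.38, adjusted p = 0.0785). Oas1a was at 0.624 to 5.04 CPM in wild type (8 to 79 counts) and 0 to 0.995 CPM in the knock-in (0 to 15 counts), and the groups overlapped. The fitted values above 0 were those of Gbp2 (0.32, adjusted p = 0.317) and Ifi44 (0.23, adjusted p = 0.802). Stat2, which fell in hematopoietic cells, was at 25.3, 29.1 and 67.2 CPM in wild type and at 21.4, 28.1 and 32.9 CPM in knock-in mesenchymal libraries (log2 fold change -0.33, adjusted p = 0.391). Mx1, Oas2, Oas3, Rsad2 and Cxcl10 were left out there by the filter on low counts, with sums over the 6 wild type libraries of 73, 54, 9, 88 and 47 counts.

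**Figure D4:**
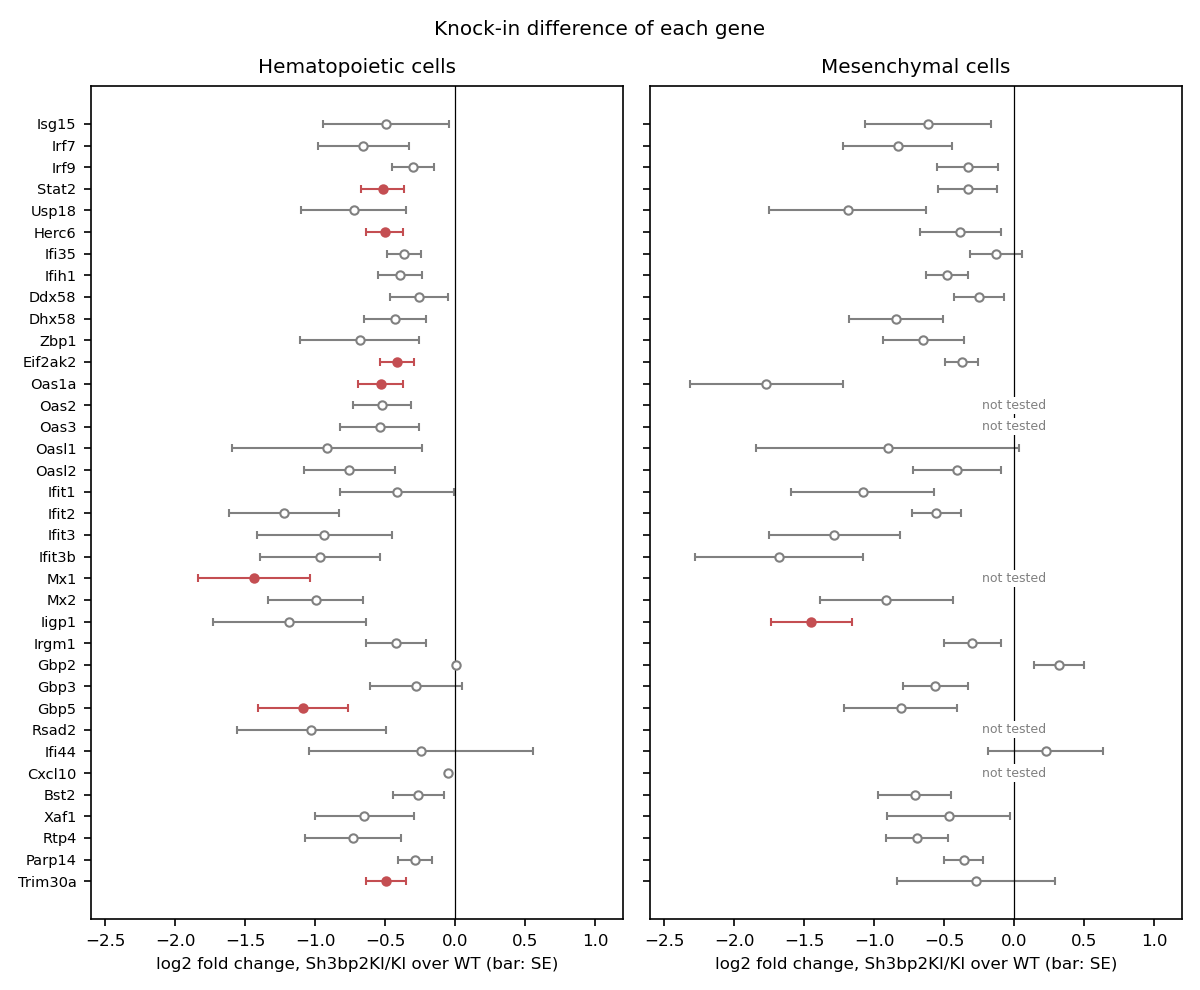
Log2 fold change of Sh3bp2KI/KI over wild type (horizontal axis) for each gene in hematopoietic and mesenchymal cells, with the SE as a bar; filled red points passed the test and open points did not. Bars are left out for Gbp2 and Cxcl10 in hematopoietic cells, where the SE computed from the test is not reliable near 0. Most points lie left of 0 in both panels, with medians of -0.52 and -0.56.

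The genotype difference was then compared between the populations by an interaction contrast of the 4 groups. Of 36 tested genes of the set 0 passed by edgeR or by DESeq2, against 7.28% of all 15389 tested genes by edgeR (2.92% higher and 4.36% lower). Oas1a alone had an unadjusted p under 0.05 by edgeR, with a mesenchymal minus hematopoietic log2 difference of -1.36 (adjusted p = 0.130). The median of the 36 differences was -0.0045, with 20 of 36 below 0 against 49.3% of all genes, but it was 0.50 within set 1 and -0.48 within set 2. The genes that fell in only 1 population are thus not shown to differ between populations, and a p that misses the threshold does not show that the populations responded alike.

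Between the populations the set differed far more than between the genotypes. In wild type 29 of 36 tested genes were lower in mesenchymal than in hematopoietic cells and 1 was higher, against 38% of all genes lower and 35.4% higher (73.5% in all). In the knock-in the counts were also 29 and 1, against 39.1% and 33.9% of all genes (73% in all). The median log2 fold change, mesenchymal over hematopoietic, was -1.76 in wild type and -1.79 in the knock-in, against -0.029 and -0.066 for all genes, and 33 and 34 of 36 values were below 0, against 51.2% and 52.8% of all. All 6 mesenchymal libraries lay below all 6 hematopoietic libraries for 16 genes in wild type and for 20 in the knock-in, against 27.9% and 27.5% of all genes, and above them for 1 in each, against 23.9% and 23.8%. These comparisons use the same libraries as the genotype comparisons, and their values are not independent of them.

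Oas3, Oas2, Trim30a, Mx1 and Oas1a had the largest population differences. Oas3 was at 35.5 ± 15.3 CPM (SD, n = 6) in wild type hematopoietic and 0.101 ± 0.117 CPM in wild type mesenchymal libraries, where it had 9 counts in all 6 libraries together (log2 fold change -8.27, SE 0.46). Oas2 was at 122 ± 25.8 and 0.620 ± 0.350 CPM (log2 fold change -7.59, SE 0.36), and Trim30a at 185.5 ± 41.3 and 1.74 ± 1.39 CPM (log2 fold change -6.74, SE 0.35). Mx1 was at 31.99 ± 13.8 and 0.802 ± 0.991 CPM (log2 fold change -5.41, SE 0.56). In each of these 4 genes the highest mesenchymal library was below the lowest hematopoietic library in both genotypes, and in the knock-in the log2 fold changes were -8.42, -7.60, -6.63 and -5.48. Oas1a was at 48.1 ± 8.42 and 2.501 ± 1.74 CPM in wild type (log2 fold change -4.33) and at 33.2 ± 9.73 and 0.630 ± 0.392 CPM in the knock-in (-5.69). Rsad2 followed, at -4.14 in wild type and -4.69 in the knock-in. Oasl1 and Oasl2, the more distant relatives of the synthetases, had smaller differences of -2.86 and -2.24 in wild type, and Cxcl10 was at -2.94.

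Smaller differences were found for the sensors and the transcription factors. Irf7 was at 32.6 ± 15.1 CPM in wild type hematopoietic and 6.54 ± 4.25 CPM in wild type mesenchymal libraries (log2 fold change -2.38), Irf9 at 59.4 ± 11.6 and 25.04 ± 11.3 CPM (-1.28) and Stat2 at 73.6 ± 10.99 and 34.8 ± 15.98 CPM (-1.10). Ifih1, Dhx58 and Zbp1 were lower in mesenchymal cells by log2 fold changes of -1.61, -2.42 and -2.40, against -0.94 for Eif2ak2 and -0.53 for Ddx58. Per kilobase of exon, which allows levels of different genes to be set side by side, the genes with the highest mean level in wild type hematopoietic libraries were Trim30a (45.1 CPM per kilobase), Eif2ak2 (29.3), Parp14 (28.2), Oas2 (27.4) and Oas1a (25.5). In wild type mesenchymal libraries they were Eif2ak2 (15.4 CPM per kilobase), Irgm1 (11.8), Gbp2 (11.7) and Ddx58 (9.57), so Eif2ak2 is the 1 gene found in both lists.

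Gbp2 went the other way. It was at 9.91 ± 2.40 CPM (SD, n = 6) in wild type hematopoietic and 29.4 ± 8.79 CPM in wild type mesenchymal libraries, and at 9.93 ± 2.66 and 36.6 ± 5.70 CPM in the knock-in. The lowest mesenchymal library (20.2 CPM) was above the highest hematopoietic library (14.3 CPM), and the log2 fold changes were 1.57 (SE 0.20, adjusted p = 2.46e-07) in wild type and 1.88 (SE 0.20, adjusted p = 1.40e-08) in the knock-in. Among the 3 GBP genes of the set, Gbp5 was lower in mesenchymal cells in both genotypes (log2 fold changes -1.64 and -1.42), and Gbp3 passed in the knock-in only (-0.73, adjusted p = 0.0437, against -0.45 and 0.202 in wild type), which is not a test of a difference between genotypes. Isg15, Iigp1, Irgm1 and Xaf1 passed in neither genotype. Isg15 was at 3.20 ± 1.75 CPM in wild type hematopoietic and 3.24 ± 2.38 CPM in wild type mesenchymal libraries, a log2 fold change of -0.10 (adjusted p = 0.850).

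**Figure D5:**
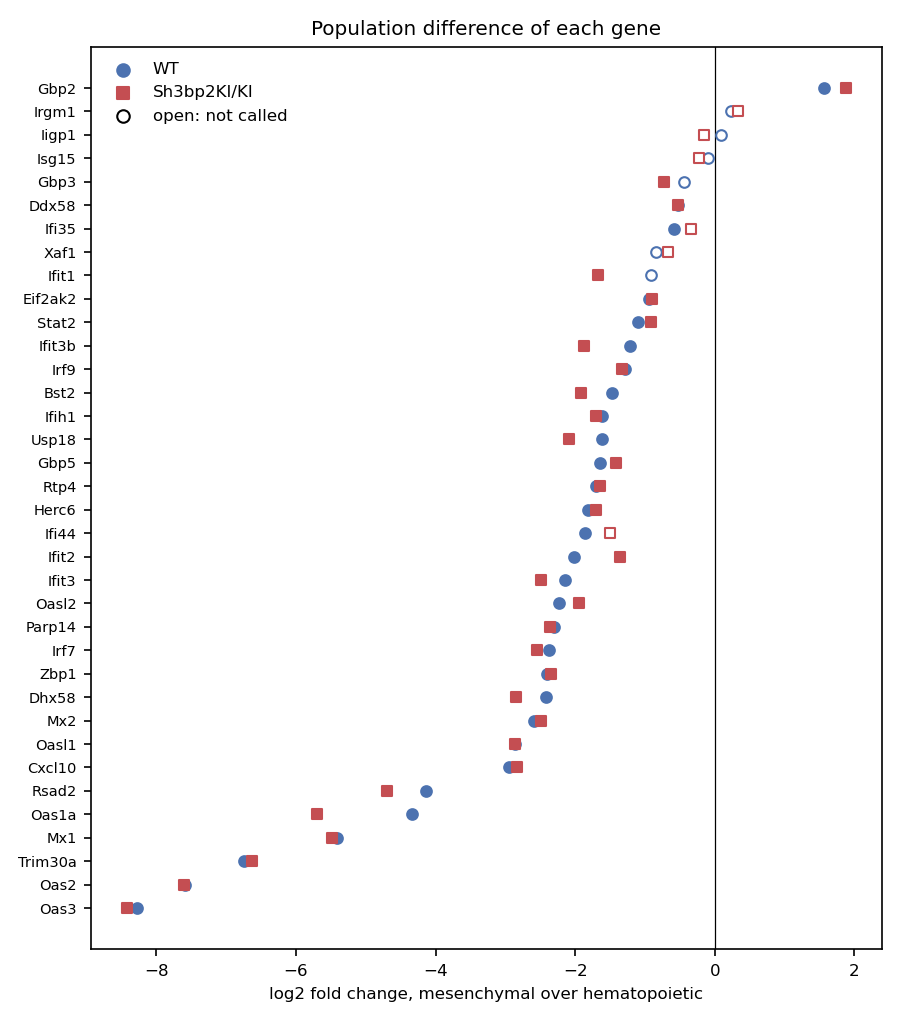
Log2 fold change of mesenchymal over hematopoietic cells (horizontal axis) for each of 36 genes in wild type (circles) and Sh3bp2KI/KI (squares) libraries, in order of the wild type value; open symbols did not pass the test. Oas3, Oas2, Trim30a and Mx1 lie below -5 in both genotypes, Oas1a does so in the knock-in, and Gbp2 alone is filled to the right of 0.

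Genes of the pathway upstream of the set were examined from lists of ligands, receptors, kinases, sensors and regulators. Of 21 interferon genes 4 had any count: Ifnk had 15 counts, all in hematopoietic libraries, and Ifna4, Ifna11 and Ifng had 1 each, while Ifnb1 is listed at 0. Among 10 tested receptor, JAK and STAT genes that are not in the set, 2 fell in knock-in hematopoietic cells and 0 rose. Over all genes 6.89% fell and 9.01% rose. Ifnar2, a chain of the type I interferon receptor, was at 63.5, 90.3 and 117 CPM in wild type and at 48.7, 54.2 and 68.8 CPM in the knock-in, with overlapping groups (log2 fold change -0.68, SE 0.14, adjusted p = 0.00628). Il10rb, a chain shared by the interferon lambda and interleukin 10 receptors, was at -0.37 (adjusted p = 0.00512). The other chain, Ifnar1, did not pass (-0.09, adjusted p = 0.654), nor did Jak1 or Tyk2. In mesenchymal cells 0 of 10 passed by edgeR, against 7.27% of all genes, with 1 at an unadjusted p under 0.05. Between populations Ifnar1 and Ifnar2 were lower in mesenchymal cells, by log2 fold changes of -1.85 and -2.41 in wild type, as most of the set was, while Jak2 was higher (1.01).

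Among 19 tested sensors, adaptors and factors that lead to interferon production, 5 fell and 1 rose in knock-in hematopoietic cells. Over all genes 6.89% fell and 9.01% rose. The median log2 fold change of the 19 was -0.316, against -0.005 for all genes, with 12 below 0 and 7 above. The nucleic acid receptors of the endosome Tlr7, Tlr8 and Tlr9 fell by 0.75, 0.53 and 0.77 on the log2 scale (adjusted p of 0.00395, 0.00695 and 0.0224), Tlr4 fell by 0.47 and the DNA sensor Aim2 by 0.33, while Traf3, an adaptor of these receptors, rose by 0.53 (adjusted p = 0.0163). Tlr7 was at 263 to 390 CPM in wild type and 133 to 272 CPM in knock-in libraries. Of 12 other IRF genes and negative regulators 2 fell and 2 rose, against the same shares of all genes. Irf4 (-1.80) and Samhd1 (-0.22) fell. Socs3 (1.19, adjusted p = 0.0498), a brake on JAK signalling, and Tnfaip3 (0.94), a brake on NF-kB, rose. In mesenchymal cells 1 of 11 tested regulators fell, Samhd1 (by 0.63), which breaks down nucleotides needed by viruses, and 0 rose. Of 15 tested sensors, adaptors and factors there, 1 fell, the DNA sensor Ifi204 (by 0.86), and 1 rose, Traf6 (by 0.37). Over all genes 3.83% fell and 3.44% rose in mesenchymal cells, so these counts were near the shares of all genes.

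Interferon-stimulated genes outside the set were taken from another list. In hematopoietic cells 14 of 50 tested fell and 2 rose in the knock-in, against 6.89% and 9.01% of all genes. The median log2 fold change was -0.36, against -0.005 for all genes, and 44 of 50 were below 0, against 50.7% of all. Sp110 and Sp100, nuclear body proteins, were at -0.80 and -0.69, the ubiquitin ligase gene Trim21 at -0.53 and the IRG-type GTPase gene Tgtp2 at -1.33, all passing the test. The 2 that rose were Ifi27 (0.74) and the lysosomal thiol reductase gene Ifi30 (0.84). In mesenchymal cells 4 of 42 fell (Tgtp2, Slfn5, Sp100 and Ube2l6, by 0.77, 1.39, 0.71 and 0.54 on the log2 scale) and 0 rose, with a median of -0.20, against 0.001 for all genes, and 36 of 42 below 0, against 49.7% of all. These genes share the libraries of the set and so share its spread between them.

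Markers of cell types also moved with the genotype in hematopoietic libraries, where 6.89% of all tested genes fell and 9.01% rose. Of 10 osteoclast markers 9 rose in the knock-in, among them Acp5 (2.79), Dcstamp (2.73) and Nfatc1 (1.30, all log2 fold changes), and their summed level was 298 to 2109 CPM in wild type and 2347 to 5887 CPM in knock-in libraries. Of 17 tested macrophage and monocyte markers 7 fell, among them Ccr2 (-1.62), Mrc1 (-1.47) and Fcgr1 (-1.26), and 2 rose, among them the lysozyme gene Lyz2. The median log2 fold change of the 17 was -0.395, against -0.005 for all genes, with 13 below 0 and 4 above. The summed level of this list was 14880 to 22760 CPM (median 18700) in wild type and 18170 to 26250 CPM (median 21750) in knock-in libraries. This sum, in which the genes with the highest levels weigh most, was not lower in the knock-in, although most of the single markers were. Of 16 leukocyte markers 4 fell and 1 rose, with a summed level of 4538 to 5238 CPM in wild type and 4125 to 4821 CPM in the knock-in. The defining marker of plasmacytoid dendritic cells, the main producers of interferon alpha, was low: Siglech was at 0.224 to 10.1 CPM in wild type and 0 to 2.53 CPM in knock-in libraries, and 1 of 4 tested markers of that type, Tcf4, fell. Of 9 tested B lineage markers 2 fell and 0 rose, and all 9 were below 0, with a median log2 fold change of -1.63. They summed to 305 to 657 CPM in wild type and 208 to 339 CPM in the knock-in. In mesenchymal libraries, sorted without CD45, the list summed to 549 to 1844 CPM in wild type and 493 to 1387 CPM in the knock-in. This sum therefore does not measure B cells alone. Stromal markers, which overlap with the mesenchymal population, summed to 3476 to 14960 CPM in wild type and 3369 to 15600 CPM in knock-in hematopoietic libraries. The part of these cell type differences in the lower levels of the interferon-stimulated genes was not tested. In knock-in hematopoietic replicate 5 the osteoclast markers summed to 4388 CPM, within the range of the other knock-in libraries. In mesenchymal libraries leukocyte markers summed to 20.6 to 53.8 CPM, and 3 of 6 tested osteoclast markers rose in the knock-in, against 3.44% of all genes.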

How the data were processed

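RNA was measured in 24 libraries of sorted cells. Total RNA was stripped of ribosomal RNA, per the labels' protocols, before stranded libraries were made and sequenced from both ends. The deposited files hold whole-number counts per gene that the authors made and did not normalise. The tools named by the submitters' processing notes are HTSeq 0.9.1, FastQC 0.11.7, DESeq2 1.20.0 and MultiQC, and the build is GRCm38 (mm10). The aligner and whether reads were counted by strand are not given in these sources, and the exons that 13 of the 37 genes share with other genes leave those counts uncertain. Of 54232 identifiers 54079 were matched to symbols. Coordinates and exon lengths are those of GENCODE vM21 for GRCm38.

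Tests used edgeR 4.0.16 in R 4.3.3 on the counts as deposited: filterByExpr (minimum count 10, minimum total 15), TMM scaling, a robust quasi-likelihood fit with the set as a term, and Benjamini-Hochberg adjustment over all tested genes at 0.05. Genotype comparisons used the 12 libraries of a population, and the population and interaction contrasts used all 24. An SE was computed from the fold change and the F statistic. No pair of replicates was identical (chi-square per degree of freedom 6.73 to 58.8). The fits were also run on simulated data with known changes in 200 genes, and the outcome is not reported here. Each gene was drawn on its own and without a set effect, so the simulation does not cover genes that move together between libraries. Same-numbered libraries were not treated as pairs, since the labels do not tie them and their deviations did not all correlate. Alternatives were DESeq2 1.42.0, other scaling, filters and set terms, a replicate block, each set alone and leaving out libraries.

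The 37 genes were given as a list, all are named, and other genes were named as called genes of the pathway and marker lists. The members and lists were chosen with earlier results of these data known. Some genes of the pathway and marker lists are not reported here.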

Additional observations from a re-analysis of the deposited data

Results flagged for a closer look

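Levels that stood apart from the other 5 libraries of their group by Dixon's gap criterion (gap over range above 0.625) were found in 30 of 137 groups of values. The genes share the same 24 libraries and moved together, so these flags are not independent and are not set against a rate expected by chance. All but 1 came from 2 libraries. Knock-in hematopoietic replicate 5 was high in Ifit2 (40.0 CPM), Ifit3b (6.08), Mx1 (26.5), Oas1a (52.9), Oas2 (143), Oasl1 (12.2), Irf7 (39.0), Usp18 (28.2), Herc6 (26.6), Bst2 (20.98), Rtp4 (49.8), Trim30a (198), Eif2ak2 (157 CPM) and the summed level (1958 CPM). Wild type mesenchymal replicate 6 was high in Ifit1 (41.3 CPM), Ifit3 (10.7), Mx2 (10.8), Oasl2 (39.9), Irf7 (14.7), Stat2 (67.2), Usp18 (20.3), Herc6 (14.5), Ifi35 (20.2), Iigp1 (19.8), Gbp3 (16.9), Parp14 (86.8), Zbp1 (10.7), Eif2ak2 (122 CPM) and the summed level (1046 CPM). Knock-in mesenchymal replicate 6 was low in Ifi35 (7.30 CPM). Both high libraries belong to set 2, and the cause was not tested. The mean summed level was higher in set 2 than in set 1 in every group. In hematopoietic libraries it was 1863 against 1658 CPM in wild type and 1396 against 1110 CPM in the knock-in. In mesenchymal libraries it was 742.5 against 417 CPM in wild type and 465 against 397 CPM in the knock-in. The libraries of the sets overlapped in all groups but wild type mesenchymal.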

How the results depend on the processing

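In hematopoietic cells the 7 genes that fell became 3 with no filter on low counts, 4 with no set term, 4 in set 1 alone, 0 in set 2 alone (0 at an unadjusted p under 0.05 by edgeR), 3 in 1 fit of all 24 libraries, and 0 to 14 when each replicate was left out in turn. DESeq2 gave 10 and RLE scaling 7. In mesenchymal cells the 1 gene that fell became 6 with DESeq2, 3 with no filter, 0 with no set term, 0 in set 1 alone and 0 in set 2 alone (11, 2 and 13 at an unadjusted p under 0.05 by edgeR), and was 1 to 3 when each replicate was left out. Each set alone and each fit without a replicate has fewer samples; the cause of the other changes was not tested. With the replicate number as a replicate block the counts were 18 and 2; not every library correlated best with its own number (4 of 6 did in hematopoietic and 3 of 6 in mesenchymal cells), and no label makes the numbers pairs. In the population comparisons the genes lower in mesenchymal cells numbered 21 to 32 in wild type and 24 to 30 in the knock-in. With knock-in hematopoietic replicate 5 and wild type mesenchymal replicate 6 both left out, an alternative chosen after the values were seen, 2 genes (Gbp2 and Irgm1) were higher in knock-in mesenchymal cells in place of 1. No fitted value of a called gene changed sign in any of these fits. Over all genes the hematopoietic calls were 1264 higher and 967 lower, against 417 and 255 in set 1 alone, 160 and 58 in set 2 alone and 1695 and 1620 with the replicate block; the mesenchymal ones were 477 and 531, against 814 and 831 by DESeq2, 279 lower in set 1 and 21 and 55 in set 2. For the interaction 0 of the set's genes were called in each of them. Levels under about 1 CPM rest on about 10 counts a library; the filter on low counts left Oas2, Oas3, Mx1, Rsad2 and Cxcl10 out of the mesenchymal test, and neither DESeq2 nor the fit with no filter called them, DESeq2 giving no adjusted p for Oas3.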
